A study of Mus musculus with 4 samples.

Results

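The genes described here are 10 alpha and beta tubulin genes, the building blocks of microtubules, out of 56883 genes in the expression table of the series. They were chosen by gene symbol. *Tuba1a*, *Tubb2a*, *Tubb2b*, *Tubb3* and *Tubb4a* were taken as neuronal isotypes, and *Tuba1b*, *Tuba1c*, *Tubb4b*, *Tubb5* and *Tubb6* as widely expressed isotypes. All 10 symbols matched 1 row each, and all 10 passed the filter on low values, a mean normalised read count of at least 10 over the libraries, as did 14323 genes in all. The study asked what loss of the DNA methyltransferase DNMT1 does to the transcriptome of immature mouse interneurons on a C57BL/6J background. Both genotypes carried *Sst-Cre*, a Cre recombinase expressed from the *Somatostatin* locus, and a Cre-dependent *tdTomato* reporter, and the tdTomato-positive cells were sorted from the basal telencephalon at embryonic day 14.5. The control embryos were *Sst-Cre/tdTomato*. The knockout embryos, *Sst-Cre/tdTomato/Dnmt1 loxP2*, had in addition *Dnmt1* alleles with loxP sites around exons 4 and 5, so that *Dnmt1* was deleted only in cells with Cre and their descendants. Each genotype had 2 libraries, each from cells of several pooled embryos, with males and females not told apart, so p-values measure the spread between these pools.

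The control libraries held 8376711 and 7276779 recovered reads, and the *Dnmt1* KO libraries, called KO libraries from here on, held 7744944 and 6970247. Normalised read counts of *Dnmt1*, counted over the whole gene and not over the deleted exons alone, were 2238 and 2341 in the control, beside 2164 and 2210 in the KO libraries. Both KO libraries lay below both controls, as in 29% of all genes tested. The difference did not pass the test (log2 fold change -0.07, SE 0.05, limma adjusted p = 0.461), so total *Dnmt1* counts did not check the deletion. All 13 listed markers of *Sst* interneurons had reads in all libraries. This does not check the labelled cell type, as genes of other cells had reads in all libraries too. Among them were *Nes*, with a control mean of 2830, and *Tbr1*, with 774. *Sst* itself reached 5580 and 5963 in the control, beside 8303 and 7825 in the KO libraries.

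Microtubules are hollow polymers of heterodimers, each of 1 alpha and 1 beta tubulin. Mammals have several genes for each, the isotypes, whose proteins are nearly the same except for the acidic tail at the C-terminus, where most modifying enzymes and many microtubule-binding proteins act. Migrating interneurons depend on microtubules to extend a leading process and to pull the nucleus forward. *Tuba1a*, *Tubb2b* and *Tubb3* are the isotypes best known from developing neurons, *Tubb2a* and *Tubb4a* rise as neurons mature, and *Tubb5* is widely expressed but also abundant in the embryonic brain. Tubulin mRNAs are under autoregulation, in which the factor TTC5 recognises the N-terminal tetrapeptide of nascent tubulin on the ribosome and leads to decay of that mRNA when free tubulin is plentiful.

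The start of the coding sequence is shown for 9 of the 10 genes because it encodes the tetrapeptide read in autoregulation. The first 30 bases are given, 5′ to 3′ on the coding strand, from the canonical transcripts of the GENCODE annotation on GRCm39, with the 12 bases of the tetrapeptide in capitals.
Tuba1a: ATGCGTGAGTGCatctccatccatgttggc
Tuba1b: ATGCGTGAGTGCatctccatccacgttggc
Tuba1c: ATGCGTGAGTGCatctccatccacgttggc
Tubb2a: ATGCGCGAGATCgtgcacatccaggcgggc
Tubb2b: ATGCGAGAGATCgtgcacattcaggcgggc
Tubb3: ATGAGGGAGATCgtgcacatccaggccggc
Tubb4a: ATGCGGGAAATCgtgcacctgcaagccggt
Tubb4b: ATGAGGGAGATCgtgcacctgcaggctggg
Tubb5: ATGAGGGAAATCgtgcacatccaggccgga
The 3 alpha genes had the same 12 capital bases, and *Tuba1b* and *Tuba1c* had the same 30 bases. The beta genes used different codons in these 12 bases, and only *Tubb3* and *Tubb4b* had the same 12.

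Over the whole coding sequence, *Tuba1a* and *Tuba1b* were identical at 98.3% of aligned bases, *Tuba1a* and *Tuba1c* at 97.6%, and *Tuba1b* and *Tuba1c* at 98.4%. *Tubb2a* and *Tubb2b* were identical at 96.5%, and every other pair of beta genes at 80.7% to 86.3%. *Tuba1a* (98847714 to 98851589, minus strand), *Tuba1b* (98827738 to 98832493, minus strand) and *Tuba1c* (98927748 to 98936266, plus strand) lie near each other on chromosome 15 of GRCm39, and *Tubb2a* (34257549 to 34261998) and *Tubb2b* (34307245 to 34315143) lie next to each other on the minus strand of chromosome 13. *Tubb4b* is on chromosome 2 (25112170 to 25114714, minus strand), *Tubb3* on chromosome 8 (124138163 to 124150092, plus strand), and *Tubb4a* (57387057 to 57394782) and *Tubb5* (36144809 to 36149198) are on the minus strand of chromosome 17. Each canonical transcript has 4 exons, with a coding length of 1335 to 1356 bases.

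Whether a 75 base stretch, the length of 1 read, also occurs in a transcript of another gene was counted along each canonical transcript. On the same strand this held for 68.1% of the stretches of *Tuba1a*, 49.6% of *Tuba1c*, 36.5% of *Tuba1b*, 37.7% of *Tubb4b*, 29.5% of *Tubb2a* and 11.9% of *Tubb2b*. It held for none of those of *Tubb3*, *Tubb4a*, *Tubb5* and *Tubb6*. The counts of the alpha genes therefore depend on how the quantification divided shared reads, while *Tubb3* and *Tubb4a* had no such stretch on either strand. On the opposite strand, *Tubb2a* shares 82.5% of its stretches with *Bphl* and *Tubb5* shares 39.8% with *Flot1*. The library kit keeps strand, but whether the counting used it is not given in the sources used here. *Bphl* had 25.1 to 31.6 and *Flot1* 206 to 255 normalised read counts, far below their tubulin neighbours. For *Tubb6* it was the other way round. It shares 61.2% of its stretches on the opposite strand, 33.0% with *Afg3l2*. *Afg3l2* had 291 to 322 normalised read counts, far above the 10.2 to 34.9 of *Tubb6*.

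In both genotypes *Tuba1a* led the alpha tubulin genes, and *Tubb5* and *Tubb2b* led the beta tubulin genes. Per kilobase of transcript, the mean level of *Tuba1a* was 17422 ± 110 (SD, n = 2) normalised read counts in the control and 18711 ± 304 in the KO libraries. *Tubb5* followed with 7412 ± 72.9 and 7215 ± 45.4, and *Tubb2b* with 4015 ± 1.51 and 4253 ± 11.5. Their order rests on the canonical length, 2652 bases for *Tubb5* and 5794 for *Tubb2b*, as undivided counts were higher for *Tubb2b*. *Tubb3*, the neuronal beta isotype used as a marker of young neurons, came next with 3156 ± 153 and 2913 ± 8.57, before *Tubb2a* with 2230 ± 75.8 and 2291 ± 15.8. The lower end of the order held *Tubb4a*, *Tuba1b*, *Tubb4b*, *Tuba1c* and *Tubb6*, from 868 to 7.74 in the control and from 941 to 5.30 in the KO libraries. The order of the 10 means was the same in both genotypes. Neighbours in it did not overlap between libraries, except *Tubb4a* and *Tuba1b* in the control, whose levels per kilobase were 859 to 877 and 835 to 867.

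**Figure D1:**
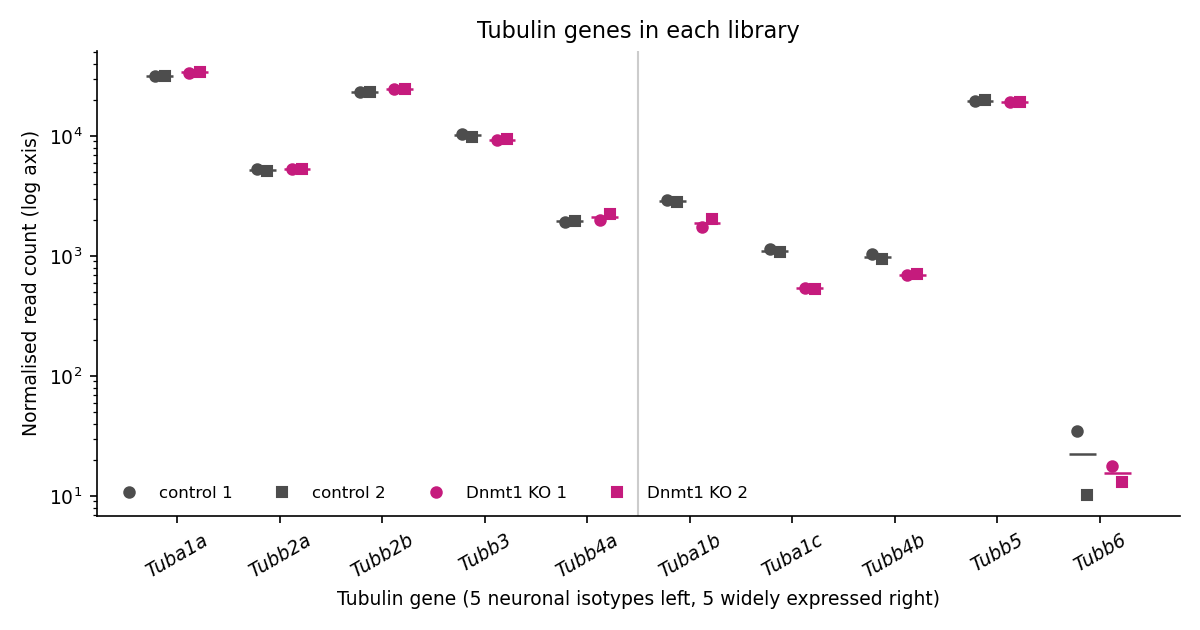
Normalised read count of each tubulin gene (log axis) in the 2 control (grey) and 2 *Dnmt1* KO (pink) libraries, with a bar at each genotype's mean, neuronal isotypes on the left and widely expressed isotypes on the right. *Tuba1b*, *Tuba1c* and *Tubb4b* sit lower in both KO libraries, *Tubb6* lies near 10 to 35 with overlapping genotypes, and the other genes lie closer together.

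In the KO libraries 3 widely expressed isotypes fell, *Tuba1c* the most, followed by *Tuba1b* and *Tubb4b*, and 1 neuronal isotype, *Tuba1a*, rose slightly. The other 6 genes did not pass the test. Of all genes tested, 8.99% were called lower and 8.3% were called higher by the same rule, an adjusted p below 0.05, and 17.3% in either direction. The median log2 fold change was 0.08 over the 5 neuronal isotypes, ranging from -0.11 to 0.11, and -0.50 over the 5 widely expressed isotypes, ranging from -1.04 to -0.04, beside -0.0033 over all genes tested. In 8 of the 10 genes, all but *Tubb2a* and *Tubb6*, the values of the genotypes did not overlap, which held for 57.4% of all genes tested (28.4% with the KO libraries above and 29% with them below).

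*Tuba1c*, a widely expressed alpha isotype, had normalised read counts of 1144 and 1074 in the control and of 542 and 533 in the KO libraries. Both KO libraries lay far below both controls. It fell by 51.5% (95% interval -56.6% to -45.8%; log2 fold change -1.04, SE 0.07, limma adjusted p = 2.36e-07). *Tuba1b*, an alpha isotype of most tissues, stood at 2910 and 2805 in the control and at 1752 and 2031 in the KO libraries. The KO libraries differed more from each other than the controls did, and the genotypes were well apart. *Tuba1b* fell by 34.0% (95% interval -40.1% to -27.2%; log2 fold change -0.60, SE 0.07, limma adjusted p = 1.56e-05).

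*Tubb4b*, a beta isotype found in many tissues and in cilia, had 1042 and 938 in the control and 692 and 704 in the KO libraries. The KO libraries were nearly equal, and both lay below the controls. It fell by 29.4% (95% interval -36.9% to -20.9%; log2 fold change -0.50, SE 0.08, limma adjusted p = 0.000309). The calls of *Tuba1b*, *Tuba1c* and *Tubb4b* also held on recovered reads with edgeR, DESeq2 and limma-voom, where 9.09%, 4.8% and 8.86% of all genes were called lower, and with any 1 library left out. Of 18 alternatives only a fit with 1 prior variance for all genes lost them, with adjusted p from 0.0592 to 0.104, and that fit called none of the 14323 genes.

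*Tubb5*, the most abundant beta isotype per kilobase of transcript, stood at 19520 and 19793 in the control and at 19218 and 19048 in the KO libraries. The genotypes did not overlap, but the gap was small. The log2 fold change was -0.04 (SE 0.03, limma adjusted p = 0.485), and the 95% interval of the change ran from -7.39% to 2.31%. *Tubb6*, a beta isotype of muscle and other tissues outside the brain, had 34.9 and 10.2 in the control and 17.8 and 13.1 in the KO libraries, from 10 to 39 recovered reads. The control libraries lay on either side of the KO libraries, and an interval from -62.1% to 73.5% (limma adjusted p = 0.746) leaves no direction detectable at this depth. Its log2 fold change was -0.30, and 0.54 without control replicate 1.

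**Figure D2:**
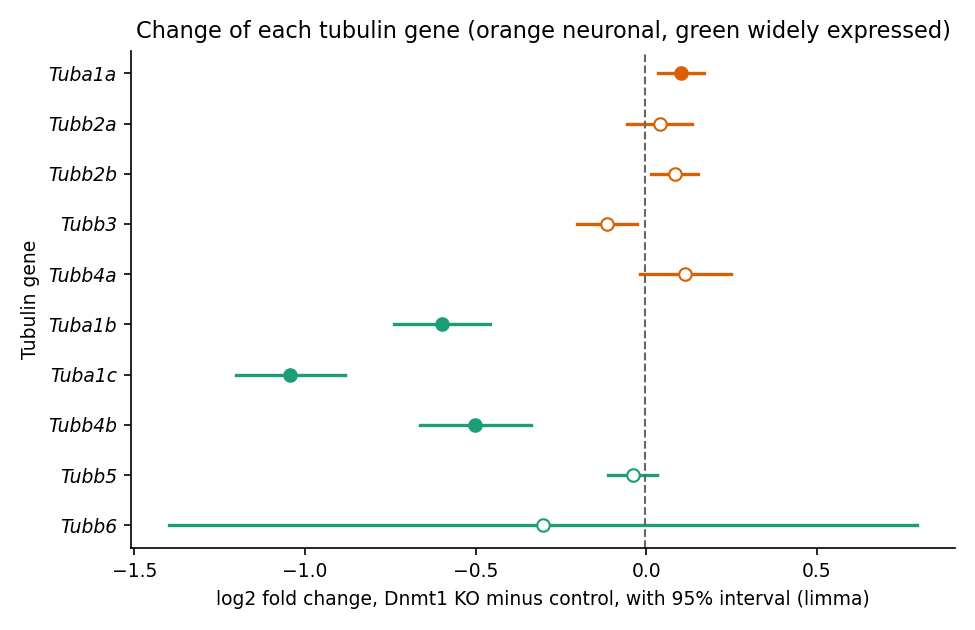
Log2 fold change of each tubulin gene, *Dnmt1* KO minus control, with its 95% interval from limma, neuronal isotypes in orange and widely expressed isotypes in green. Filled points passed the test at an adjusted p below 0.05, and the dashed line is the median of all genes tested (-0.0033). *Tuba1c*, *Tuba1b* and *Tubb4b* lie to the left of the line with their whole intervals, and the neuronal isotypes lie close to it.

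Among the neuronal isotypes, *Tuba1a*, the main alpha tubulin of migrating neurons, had normalised read counts of 31639 and 31359 in the control and of 33440 and 34218 in the KO libraries. Both KO libraries lay above both controls. The rise was 7.39% (95% interval 2.49% to 12.5%; log2 fold change 0.10, SE 0.03, limma adjusted p = 0.0353). This call was lost in 10 of 18 alternatives, among them edgeR (adjusted p = 0.0545), DESeq2 (adjusted p = 0.0838) and each fit without 1 library. Without control replicate 1 or 2 the limma adjusted p was 0.0874 or 0.14, and without KO replicate 1 or 2 it was 0.102 or 0.286. With the length and GC trend removed the log2 fold change was 0.19 (adjusted p = 0.000582). Among the 10 was also the fit with rows that share sequence added, described below, which does not test *Tuba1a*. Over all genes edgeR called 8.56% and DESeq2 4.47% higher.

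*Tubb2b*, a beta isotype of migrating neurons, stood at 23256 and 23268 in the control and at 24593 and 24687 in the KO libraries. Libraries of 1 genotype were nearly equal and the KO libraries were higher, but the difference did not pass the test (log2 fold change 0.08, SE 0.03, limma adjusted p = 0.0933, 95% interval of the change 0.978% to 11.1%). The sign turned under quantile normalisation (log2 fold change -0.02), and limma-voom on recovered reads, which called 8.57% of all genes higher, also called this one (adjusted p = 0.0168). *Tubb2a*, its close relative, had 5311 and 5062 in the control and 5302 and 5354 in the KO libraries. These values overlapped, with a log2 fold change of 0.04 (SE 0.04, limma adjusted p = 0.608, 95% interval of the change -3.80% to 9.76%) that turned to -0.01 under quantile normalisation and was 0.07 without control replicate 1 and 0.0045 without control replicate 2.

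*Tubb3* was the only neuronal isotype with a negative value. It had 10465 and 9773 in the control and 9319 and 9358 in the KO libraries. The controls lay further apart than the KO libraries, which were both lower, and the difference did not pass the test (log2 fold change -0.11, SE 0.04, limma adjusted p = 0.0727, 95% interval of the change -13.2% to -1.78%). It passed under quantile normalisation (adjusted p = 0.00787), with limma-voom (adjusted p = 0.0327) and without control replicate 2 (log2 fold change -0.16, adjusted p = 0.0325), but not with edgeR (adjusted p = 0.0914) or DESeq2 (adjusted p = 0.167), and without control replicate 1 the log2 fold change was -0.07 (adjusted p = 0.39). *Tubb4a*, an isotype of mature neurons and myelinating glia, had 1922 and 1961 in the control and 1981 and 2231 in the KO libraries. The lower KO library was close to the controls, and the log2 fold change of 0.11 did not pass the test (SE 0.06, limma adjusted p = 0.239, 95% interval of the change -1.31% to 18.8%). It was 0.20 without KO replicate 1 (limma adjusted p = 0.0742) and 0.03 without KO replicate 2 (limma adjusted p = 0.881).

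Within the alpha pool the shares of the isotypes shifted towards *Tuba1a*. *Tuba1a* made up 92.7% and 93.0% of the summed alpha counts per kilobase in the control and 96.1% and 95.8% in the KO libraries. The share of *Tuba1b* was 4.59% and 4.48% against 2.71% and 3.06%, and that of *Tuba1c* was 2.66% and 2.52% against 1.23% and 1.18%. For all 3 the shares did not overlap between genotypes, as the values of 57.4% of all genes tested did not. The 3 shares make up the whole alpha pool. The larger share of *Tuba1a* is therefore no result apart from the smaller shares of *Tuba1b* and *Tuba1c*. In the beta pool, *Tubb5* held 39.9% and 41.1% in the control and 40.3% and 39.7% in the KO libraries. *Tubb2b* went from 21.8% and 22.1% to 23.6% and 23.5%, and *Tubb3* from 17.7% and 16.8% to 16.1% in both. The share of *Tubb4b* was small, at 3.53% and 3.23% in the control and 2.40% and 2.43% in the KO libraries. Summed normalised read counts over the 7 beta genes were 61551 and 60805 in the control and 61123 and 61395 in the KO libraries, so they overlapped between genotypes, and the 10 genes together took 1.27% to 1.30% of each library. The shares are a description, without a test.

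**Figure D3:**
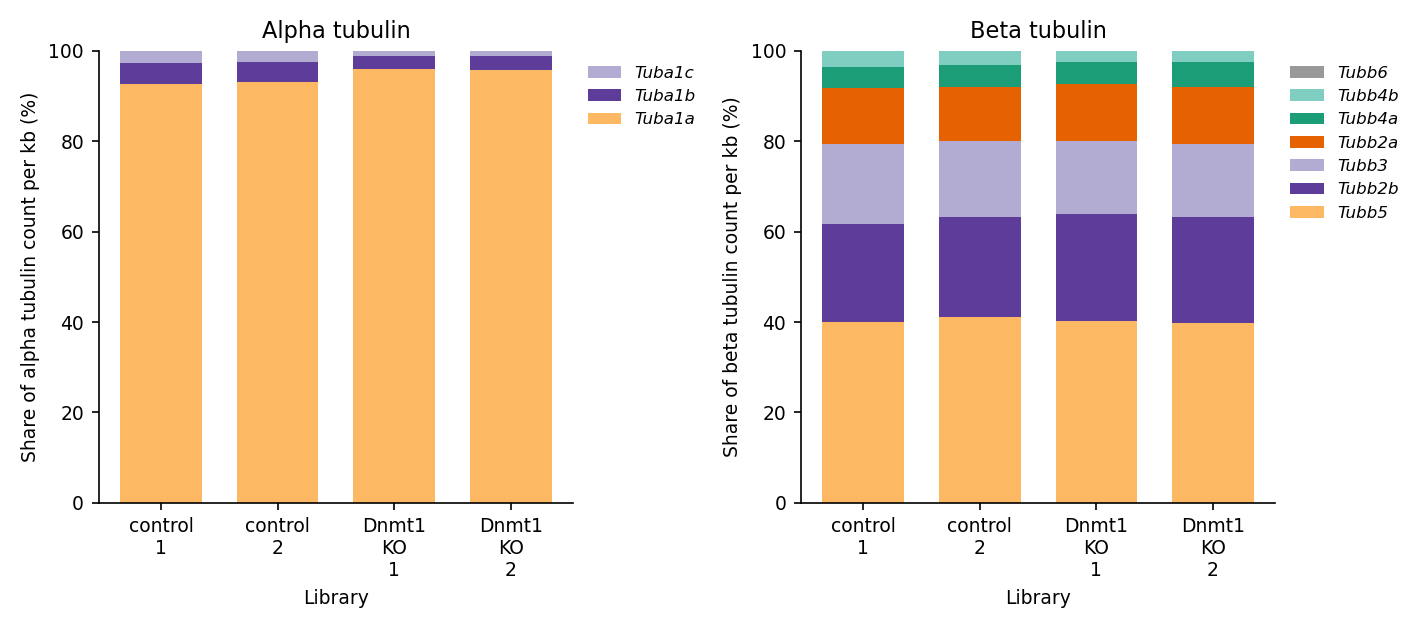
Share of each isotype in the summed alpha (left) and beta (right) tubulin counts per kilobase of transcript, in percent, with 1 bar for each library. *Tuba1a* fills 92.7% to 96.1% of the alpha bars, *Tuba1b* and *Tuba1c* are thinner in the KO libraries, and in the beta bars *Tubb4b* is thinner.

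Rows of the table that share same-strand sequence with the alpha genes also fell. *Gm49450*, a gene annotated as protein-coding that overlaps *Tuba1a* and *Tuba1b* on their strand, had 4902 and 4156 in the control and 3621 and 3181 in the KO libraries (log2 fold change -0.41, SE 0.07, limma adjusted p = 0.000978, DESeq2 adjusted p = 0.0509). *Gm17383*, a processed pseudogene with sequence of all 3 alpha genes, had 1271 and 1138 in the control and 505 and 622 in the KO libraries (log2 fold change -1.10, SE 0.09, limma adjusted p = 1.55e-06). *Gm3226*, another such pseudogene, had 363 and 356 against 158 and 168 (log2 fold change -1.14, SE 0.12, limma adjusted p = 8.10e-06). Of 10 such rows outside the alpha genes, 8 were tested, and 7 were called lower, beside 8.99% of all genes tested. Without control replicate 1 this count was 4, as *Gm14150*, *Gm3756* and *Gm7172* were lost (limma adjusted p = 0.0992, 0.0984 and 0.0653), without control replicate 2 it was 5, without KO replicate 1 it was 6, and with DESeq2 it was 3. *Gm17383* and *Gm3226* were among the rows called in all of these. The rows were named, and the 10 rows summed, after their values were seen.

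Summed over the 10 rows, the count was 7049 and 6163 in the control and 4573 and 4278 in the KO libraries. Summed over the 3 alpha genes alone it was 35693 and 35238 in the control and 35733 and 36782 in the KO libraries. With genes and rows together it was 42741 and 41401 against 40306 and 41060. The genotypes did not overlap in any of these sums, as held for 57.4% of all genes tested. For the genes alone the KO libraries were above the control, but barely, with 35733 in KO replicate 1 and 35693 in control replicate 1. For genes and rows together they were below it, with 41060 in KO replicate 2 and 41401 in control replicate 2. With the sharing rows added to each gene, the log2 fold change was 0.01 for *Tuba1a* (limma adjusted p = 0.930), -0.58 for *Tuba1b* (limma adjusted p = 1.01e-06) and -0.63 for *Tuba1c* (limma adjusted p = 1.73e-06). The call of *Tuba1a* was lost with these rows included. As the rows were already seen to fall, this loss does not test *Tuba1a*. The same rows were added in full to each alpha gene, with a control mean of 6606 beside 2858 for *Tuba1b* and 1109 for *Tuba1c*. The kept calls of *Tuba1b* and *Tuba1c* therefore mostly read the rows, already seen to fall, and do not test these genes. Pseudogenes that share sequence with *Tubb4b* had at most 9.84 normalised read counts, and adding them left its log2 fold change at -0.51 (limma adjusted p = 0.00027).

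**Figure D4:**
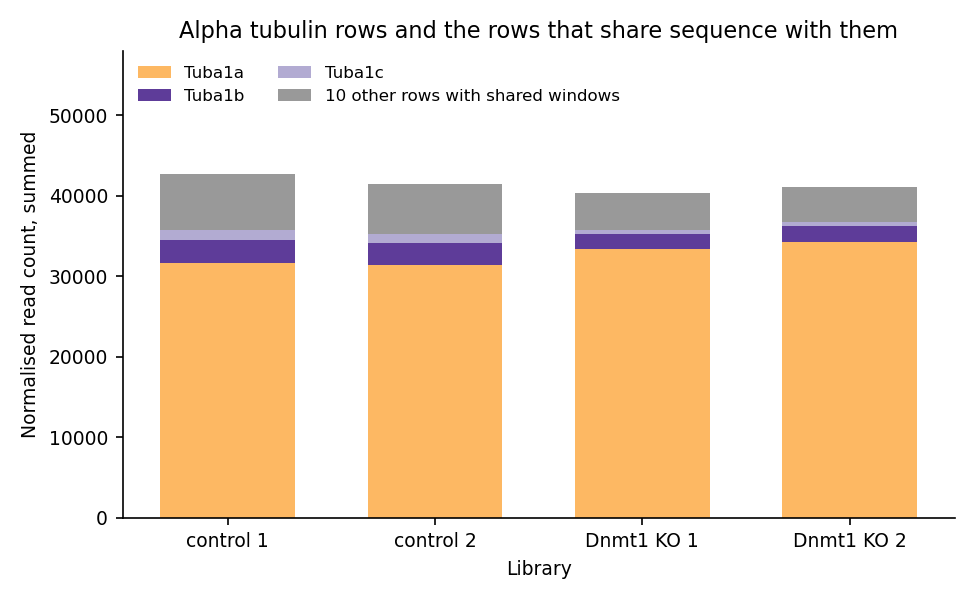
Summed normalised read counts of *Tuba1a*, *Tuba1b*, *Tuba1c* and of the 10 other rows that share same-strand 75 base stretches with them, in each library. The grey segment of shared rows is 7049 and 6163 in the control and 4573 and 4278 in the KO libraries.

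The remaining tubulin genes were low or did not pass the test. Of 10 further alpha, beta, gamma, delta and epsilon tubulin genes, 5 were tested and 0 were called by limma, edgeR or DESeq2. Over all genes tested limma called 8.3% higher and 8.99% lower. At an unadjusted p below 0.05, 2 of the 5 were lower with limma and with edgeR and 0 with DESeq2. Of all 14323 genes, 2208 were lower at that p with limma, 2208 with edgeR and 1328 with DESeq2. *Tuba4a*, an alpha isotype of platelets, muscle and adult brain, had 25.1 and 27.6 in the control and 9.86 and 13.1 in the KO libraries (log2 fold change -1.14, SE 0.41, limma adjusted p = 0.0703). *Tubg1*, the gamma tubulin of nucleating complexes, had 395 and 368 against 322 and 330 (log2 fold change -0.22, SE 0.10, limma adjusted p = 0.143). *Tubg2*, *Tubd1* and *Tube1* overlapped between genotypes, *Tuba8* and *Tubb1* had 2.04 in control replicate 2 alone, and *Tuba3a*, *Tuba3b* and *Tubal3* were at 0 in all libraries.

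Outside the tubulin genes, 8 of 29 tested genes for microtubule-binding proteins were higher in the KO libraries and 3 were lower, with a median log2 fold change of 0.08. Over all genes tested 8.3% were called higher and 8.99% lower. *Mapt*, which encodes the axonal protein tau, rose from 5399 and 5605 to 6694 and 6934 (log2 fold change 0.31, SE 0.04, limma adjusted p = 0.000162). *Map1b*, prominent in growing axons, had 40886 and 43074 in the control and 47899 and 47238 in the KO libraries (log2 fold change 0.18, SE 0.03, limma adjusted p = 0.00134). *Map2*, the dendritic counterpart, had 11419 and 11623 against 13072 and 12812 (log2 fold change 0.17, SE 0.04, limma adjusted p = 0.00524). For these 3 genes both KO libraries lay above both controls, as in 28.4% of all genes tested. The call of *Map1b* was lost under quantile normalisation (adjusted p = 0.126) and its log2 fold change was 0.11 with the trend over transcript length and GC content removed, where it still passed, and the call of *Map2* was lost with that trend removed (log2 fold change 0.05, adjusted p = 0.399) and without KO replicate 1 (limma adjusted p = 0.0527).

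*Map9*, which stabilises spindle and ciliary microtubules, rose by 0.30 on the log2 scale, and the linker protein gene *Clip2* rose by 0.29 (limma adjusted p = 0.0083 and 0.0027). Genes that fell were *Tppp3*, a tubulin polymerisation promoter, from 56.4 and 45.9 to 18.7 and 27.3 (log2 fold change -1.13, limma adjusted p = 0.0204), *Map6*, which stabilises neuronal microtubules (-0.25, limma adjusted p = 0.0138), and *Stmn1*. *Tppp3* did not pass without control replicate 1 or 2 or KO replicate 1 (limma adjusted p = 0.157, 0.0658 and 0.0787), *Map6* without control replicate 2 or KO replicate 2 (0.0736 and 0.124) and *Map9* without control replicate 1 (0.064). *Tppp3* also did not pass with DESeq2 (adjusted p = 0.121), nor *Map9* with the length and GC trend removed (log2 fold change 0.20, adjusted p = 0.0652). *Stmn1* encodes stathmin, which binds free tubulin dimers, and it stood at 15912 and 17122 in the control and at 14424 and 13873 in the KO libraries (log2 fold change -0.22, SE 0.04, limma adjusted p = 0.00151), with a log2 fold change of -0.14 when the length and GC trend was removed, where it still passed. *Stmn2*, its neuronal relative, did not pass the test (log2 fold change 0.04, limma adjusted p = 0.636).

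Genes for tubulin folding, the prefoldin and CCT chaperones and the tubulin cofactors, had 2 of 21 members lower and a median log2 fold change of -0.10. This is beside 8.99% of all genes tested called lower. The prefoldin subunit gene *Pfdn6* was lower (log2 fold change -0.42, limma adjusted p = 0.0331), and the chaperonin subunit gene *Cct3* was at the edge of the threshold (log2 fold change -0.20, limma adjusted p = 0.0499). The call of *Pfdn6* was lost without control replicate 1 or 2 or KO replicate 1 (limma adjusted p = 0.0794, 0.171 and 0.22), with DESeq2 (adjusted p = 0.189), under quantile normalisation (adjusted p = 0.0645) and with the length and GC trend removed (log2 fold change -0.22, adjusted p = 0.266). That of *Cct3* was lost in 7 of 16 alternatives, without control replicate 1 or KO replicate 2 (log2 fold change -0.12 and -0.16, limma adjusted p = 0.304 and 0.211) and with DESeq2 (adjusted p = 0.142) among them. *Tbca*, a cofactor that holds beta tubulin, did not pass the test (log2 fold change -0.08, limma adjusted p = 0.639). The 3 autoregulation genes did not pass it either. At an unadjusted p below 0.05 limma had 1 of them higher, beside 2115 of all 14323 genes tested. edgeR called 1 of the 3 higher and DESeq2 0, beside 1226 and 640 of all genes. *Ttc5*, which reads the tetrapeptide, had 449 and 383 in the control and 401 and 421 in the KO libraries (log2 fold change -0.01, limma adjusted p = 0.952). *Scaper*, which links TTC5 to the deadenylase complex, had 915 and 939 against 1039 and 1094 (log2 fold change 0.20, limma adjusted p = 0.0567, edgeR adjusted p = 0.0479), and *Cnot11*, a subunit of that complex, had overlapping values (log2 fold change -0.17, limma adjusted p = 0.415).

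In the list of nucleation genes 1 of 17 was lower, *Haus7* of the augmin complex (log2 fold change -0.43, limma adjusted p = 0.0499), and the median was -0.27. Of 16 tested genes for tubulin modification 2 were higher. These were *Ttl*, the ligase that restores the C-terminal tyrosine of alpha tubulin (352 and 399 against 453 and 473, log2 fold change 0.30, limma adjusted p = 0.0443), and *Matcap1*, a carboxypeptidase that removes it (log2 fold change 0.22, limma adjusted p = 0.0277). Of 6 severing genes *Fign* was lower (log2 fold change -0.50, limma adjusted p = 0.0234). The shares over all genes tested were 8.99% lower and 8.3% higher.

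Each of these 4 calls was lost in 3 of the 4 fits that left out 1 library. *Haus7* lost its call without control replicate 1 or 2 or KO replicate 2 (limma adjusted p = 0.199, 0.125 and 0.221), as did *Fign* (0.133, 0.0716 and 0.106). *Matcap1* lost it without control replicate 1 or 2 or KO replicate 1 (limma adjusted p = 0.122, 0.0512 and 0.206), and *Ttl* without control replicate 1 or either KO replicate (0.237, 0.0628 and 0.16). DESeq2 called none of the 4 (adjusted p from 0.0899 to 0.283), and *Haus7* was lost in 11 of 16 alternatives, edgeR among them (adjusted p = 0.0515). The higher calls came from 2 lists, with 8 of 29 microtubule-binding genes and 2 of 16 modification genes, and the other lists had 0. Over all 7 lists of tubulin and microtubule genes outside the 10, 10 of 97 tested genes were called higher and 7 lower, with a median log2 fold change of -0.03. The pooled shares, 10.3% and 7.22%, are near the 8.3% and 8.99% of all genes tested. Pooled in this way, the counts set the lists apart from other genes in neither direction. Without control replicate 1 there were 5 higher and 2 lower, without control replicate 2 there were 7 and 2, without KO replicate 1 there were 6 and 6, and without KO replicate 2 there were 7 and 3. DESeq2 called 6 higher and 2 lower.

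Genes that mark other cell states changed in the same direction as *Tuba1b*, *Tuba1c* and *Tubb4b*. For scale, 8.99% of all genes tested were called lower and 8.3% higher. The summed counts of 16 cell cycle genes were 9380 and 9186 in the control and 6586 and 6571 in the KO libraries, and 15 of the 16 were called lower, *Aurkb* the most (log2 fold change -1.26). The summed counts of 9 radial glia genes were 11384 and 11302 against 6805 and 7004, with 7 called lower, *Nes* the most (log2 fold change -1.03), and *Sox2* called higher (log2 fold change 0.40). The part of such cells in the tubulin changes was not tested, and in bulk libraries fewer cells of a type and less RNA per cell cannot be told apart.

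Markers of other lineages were lower as well, where 8.99% of all genes tested were called lower. Of the excitatory lineage 6 of 8 genes were lower, with *Slc17a6* at -1.25, and of red blood cells 7 of 7, with *Hbb-y* at -3.44 on the log2 scale. Of endothelial cells 6 of 6 were lower, with *Cdh5* at -1.72, of mural cells and fibroblasts 5 of 5, with *Col1a2* at -1.32, and of microglia 1 of 3, *Csf1r*, at -1.42. The call of *Col1a2* was lost without control replicate 1 or 2 or KO replicate 1 (limma adjusted p = 0.0554, 0.217 and 0.117) and that of *Csf1r* without control replicate 1 or 2 (0.117 and 0.0685). In sum these lists went from 2660 and 2696 to 1510 and 1377 for the excitatory lineage, from 2591 and 2400 to 576 and 590 for blood, from 478 and 503 to 192 and 219 for endothelial cells, from 368 and 418 to 179 and 180 for mural cells and fibroblasts, and from 83.2 and 103 to 32.6 and 44.8 for microglia. No list was without reads in the KO libraries.

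Markers of *Sst* interneurons moved the other way, with 12 of 13 higher, *Maf* the most (log2 fold change 1.12), and a summed count of 24939 and 25003 in the control against 36752 and 37291 in the KO libraries. The median log2 fold change was 0.53 for these markers and 0.08 for the neuronal isotypes, a difference that was not tested. Of 9 general neuronal genes 2 were higher, *Syt1* the most (log2 fold change 0.49), and 3 were lower, among them the neurofilament genes *Nefl* (log2 fold change -0.71) and *Nefm* and the growth cone gene *Gap43*. Beside both lists, 8.3% of all genes tested were called higher and 8.99% lower.

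**Figure D5:**
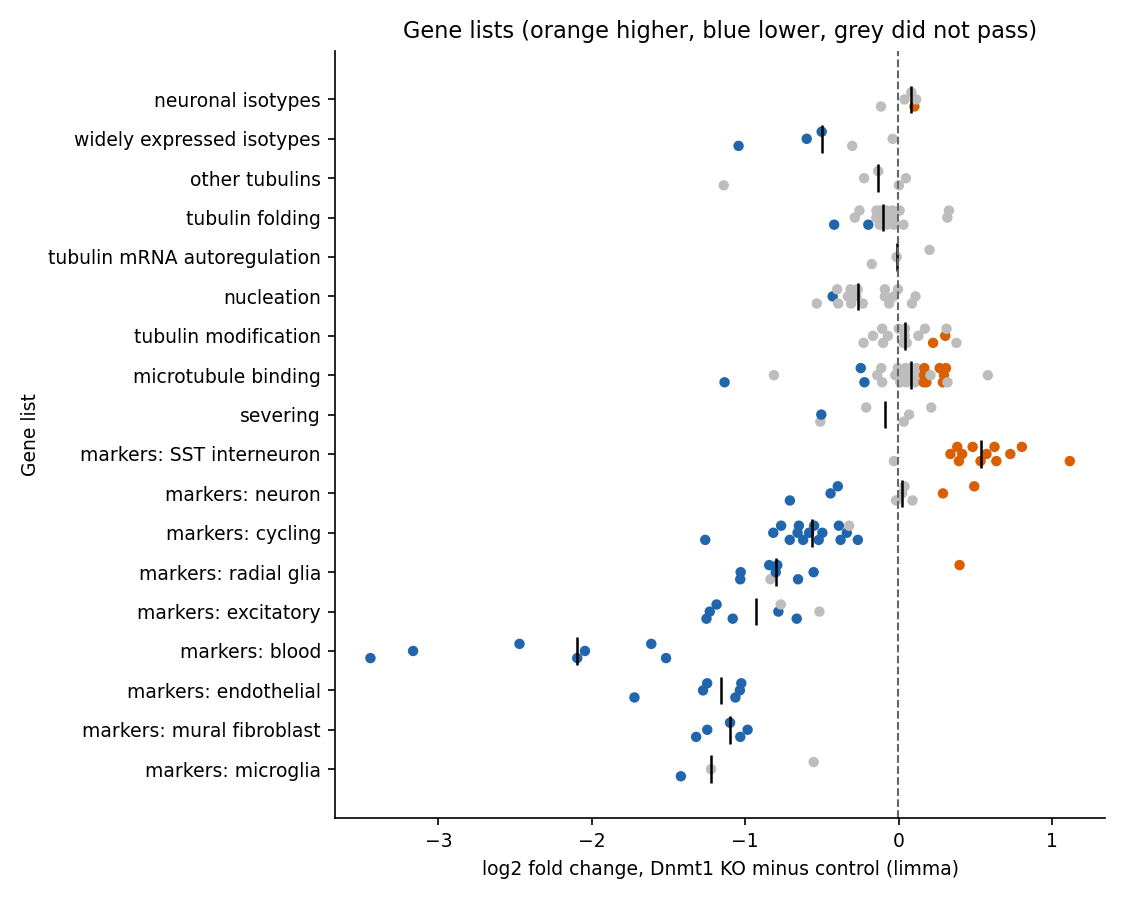
Log2 fold change of each tested gene, *Dnmt1* KO minus control, by gene list, with a black bar at the median of each list and a dashed line at the median of all genes tested. Orange genes were called higher and blue genes lower. The cell cycle, radial glia and other non-interneuron marker lists lie to the left and the *Sst* interneuron markers to the right. The tubulin and microtubule lists lie nearer the line, apart from the widely expressed isotypes (median -0.50) and the nucleation genes (median -0.27).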

How the data were processed

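RNA of FAC-sorted tdTomato-positive cells was sequenced as paired-end reads of 75 bp from stranded, rRNA-depleted libraries. Per the labels and the methods, the authors used Trim Galore for trimming, STAR for alignment to GRCm39, Salmon for gene quantification and DESeq2 for normalising counts. The deposited signal is a normalised count per gene and library, a whole number divided by 1 size factor. All 89965 values above 0 came out whole to within 0.001. These whole numbers are called recovered reads here, and they summed to 6970247 to 8376711 per library. Whether they were rounded from Salmon estimates is not given in the sources used here. The annotation release and the strand setting of the counting are not given in the sources used here.

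Groups follow the sample labels. The test was limma 3.58.1 in R 4.3.3 on log2(normalised count + 1) of the 14323 genes whose mean normalised count reached 10, with genotype as the only term, a variance trend and Benjamini-Hochberg adjustment. Fold changes are on this scale and understate changes of low genes. edgeR 4.0.16 and DESeq2 1.42.0 on recovered reads called 1226 and 640 genes higher and 1302 and 687 lower, against 1189 and 1287 for limma. Levels between genes were compared per kilobase of canonical transcript, with transcripts and sequences from GENCODE on GRCm39. With 2 against 2 libraries an exact permutation test cannot pass 0.05, so none was used. The steps were tested on simulated data.

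The genes named were the 10 tubulin genes, other tubulins with a read, up to 3 called genes in each direction per microtubule list, a set of named microtubule genes, *Dnmt1*, and the most changed called markers in each direction. Members and lists were chosen with earlier results of these data known. Other alternatives were pseudocounts of 0.5 and 10, filters of 1 and 50, TMM, quantile normalisation, 1 prior variance, limma-voom, removal of the length and GC trend, a replicate block, each library left out, which assumes that a lone library varies like the others, and rows that share sequence added.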

Additional observations from a re-analysis of the deposited data

How the results depend on the processing

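The falls of *Tuba1b*, *Tuba1c* and *Tubb4b* kept their direction in all 18 alternatives and their call in 17. Not all of these could move the fold change. Filters of 1 and 50, 1 prior variance and the replicate block left it as in the main fit. Adding pseudogenes by name changed the counts of *Tubb4b* and *Tubb2a* alone. For *Tubb4b*, adding the sharing rows gave the same log2 fold change as adding those pseudogenes, -0.51. For *Tuba1b* and *Tuba1c* the fit with the sharing rows added is no test, as the added rows outweigh the genes. It is no test of *Tuba1a* either, as the rows were already seen to fall. limma with 1 prior variance called no gene (0 of 10 tubulin genes in either direction, 0 of all genes, 0 of the microtubule lists), although 1507 genes were higher and 1832 lower there at an unadjusted p below 0.05, among them 3 tubulin genes, all lower; its adjusted p was 0.0592 for *Tuba1c*, 0.0973 for *Tuba1b* and 0.104 for *Tubb4b*. The number of tubulin genes called higher, 1, was 0 with a pseudocount of 10, a filter of 50, edgeR, DESeq2 and the sharing rows added (chosen after seeing the data), 0 to 0 with 1 library left out, and 2 with limma-voom; at an unadjusted p below 0.05, 2 were higher with a pseudocount of 10, a filter of 50, edgeR or DESeq2, and 0 to 2 with 1 library left out. Over all genes DESeq2 called 640 higher and 687 lower, and leaving out 1 library gave 787 to 959 higher and 738 to 1246 lower, fewest without control replicate 2. For the microtubule lists the calls were 5 higher under quantile normalisation, 6 higher and 2 lower with DESeq2, and 5 to 7 higher and 2 to 6 lower with 1 library left out. At an unadjusted p below 0.05, 2142 of all genes were higher with a pseudocount of 10 and 1782 with a filter of 50. The number was 2139 with edgeR and 1283 with DESeq2. The median log2 fold change of the neuronal isotypes was -0.011 under quantile normalisation, 0.034 with sharing rows added and 0.032 to 0.086 with 1 library left out, lowest without *Dnmt1* KO replicate 2. That of the widely expressed isotypes was -0.39 with the length and GC trend removed and -0.63 to -0.43 with 1 library left out.

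Signs turned for genes that did not pass the test. Under quantile normalisation *Tubb2a* was at -0.011, *Tubb2b* at -0.025 and *Stmn2* at -0.049, with the length and GC trend removed *Ttc5* was at 0.056 and *Tbca* at 0.023, and *Tubg2* was at -0.0033 with edgeR, -0.00021 with DESeq2 and -0.0046 with limma-voom. With 1 library left out, *Tubb6* ranged from -1.14 to 0.54, *Tubd1* from -0.14 to 0.24, *Tube1* from -0.33 to 0.060, *Ttc5* from -0.13 to 0.10, *Cnot11* from -0.36 to 0.011 and *Tubg2* from -0.10 to 0.10. The cause was not tested. TMM moved the median of all genes by 0.0017. The replicate numbers did not pair the samples (correlation of their deviations -0.08), and with the replicate block 1402 genes were called higher and 1555 lower, and *Tuba1a* had an adjusted p of 0.0497. With 2 libraries per genotype, depth limits *Tubb6*, with 10 to 39 reads, and *Tuba4a*.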
